A study of Mus musculus with 12 samples.

Results

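Ccl1, Ccl3, Ccl4, Ccl5 and Xcl1 are the genes of 5 secreted chemokines that activated T cells can make, and they are 5 of the 32285 genes counted in these libraries. They were taken from a given list of names, and their UMI counts (unique molecular identifiers, each standing for 1 captured RNA molecule) were read in 30749 T cells, across the 9 clusters of the deposited cell table (numbered 0 to 8) and between the study's 2 antibody groups. All 5 symbols were found in the files.

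The cells came from subcutaneous tumours of C57Bl/6 mice injected with 300000 MCA205 cells, a mouse fibrosarcoma line. Every mouse received oxaliplatin (10 mg/kg) 8 days after the injection and anti-PD1 (200 µg) another 8 days later. From 2 days before the chemotherapy until the day before the immunotherapy, 3 mice also received an antibody that neutralises ACBP/DBI, the acyl-coA binding protein, and 3 received an IgG2a isotype control (2.5 mg/kg every other day). Tumours were taken 2 days after the anti-PD1. T cells were sorted from them and the CD4+ and CD8+ fractions recombined in equal parts, with 10000 loaded from each mouse, so the balance of CD4 to CD8 cells was set by the experimenters. Each mouse is 1 library, and p-values measure the spread between mice. Tumours without oxaliplatin and anti-PD1 were not analysed here, so all values are those of treated mice.

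Chemokines bind G protein-coupled receptors on other leukocytes and set where those cells move. Ccl3 and Ccl5 bind Ccr1, Ccl1 binds Ccr8, and Xcl1 binds Xcr1, the receptor of cross-presenting dendritic cells. In T cells, transcription of Ccl1, Ccl3, Ccl4 and Xcl1 is known to follow antigen receptor signalling, whereas Ccl5 is known as a gene of effector and memory cells that is held as stored message.

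Ccl1, Ccl3, Ccl4 and Ccl5 lie on mouse chromosome 11 and Xcl1 on chromosome 1. In RefSeq's GRCm38.p6 annotation the genes span chr11:82176666-82179812 (Ccl1), chr11:83525778-83530518 (Ccl5), chr11:83647843-83649378 (Ccl3), chr11:83648624-83664683 (Ccl4) and chr1:164931644-164935522 (Xcl1). The extent of Ccl4 includes a predicted transcript that reaches over Ccl3. Whether the authors' counting used such a transcript or the strand of the reads is not stated, and how many reads of these neighbours were shared between them was not tested.

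The 250 bases before the start of 3 of the genes are shown, Ccl1, Ccl3 and Xcl1, which along with Ccl4 had their highest level in the same cluster of cells and which the RefSeq table used here lists. They are RefSeq GRCm38.p6 sequence, read 5′ to 3′ on the minus strand of chr11:82179813-82180062 (Ccl1), chr11:83649379-83649628 (Ccl3) and chr1:164935523-164935772 (Xcl1). Capitals mark matches to the searched motifs. Ccl4 and Ccl5 are named only.
Ccl1: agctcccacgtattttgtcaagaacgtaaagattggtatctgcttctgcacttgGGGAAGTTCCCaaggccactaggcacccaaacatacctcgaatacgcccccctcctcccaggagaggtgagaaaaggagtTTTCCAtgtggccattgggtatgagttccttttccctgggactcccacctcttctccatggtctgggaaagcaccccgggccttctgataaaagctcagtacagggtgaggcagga
Ccl3: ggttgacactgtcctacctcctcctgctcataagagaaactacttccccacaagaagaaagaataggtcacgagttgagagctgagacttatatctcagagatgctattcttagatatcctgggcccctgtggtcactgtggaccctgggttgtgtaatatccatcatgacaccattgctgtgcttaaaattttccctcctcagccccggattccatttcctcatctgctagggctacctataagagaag
Xcl1: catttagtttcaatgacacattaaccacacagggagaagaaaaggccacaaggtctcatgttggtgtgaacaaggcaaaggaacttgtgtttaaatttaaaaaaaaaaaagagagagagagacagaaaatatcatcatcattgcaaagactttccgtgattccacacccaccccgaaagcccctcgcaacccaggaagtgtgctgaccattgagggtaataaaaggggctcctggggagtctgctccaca
The search covered GGG, any 3 bases and TTCC (an NF-kappaB type site), TGGAAA (NFAT core), TGANTCA (AP-1) and TGACGTCA (CRE), each on both strands, and TATAAA on the printed strand. In Ccl1, GGGAAGTTCC began 196 bases before the start, with GGAAGTTCCC, its match on the other strand, at 195 bases, where the pair overlapped. TTTCCA, the other strand of the NFAT core, began 116 bases before the start. The NF-kappaB letters were in 4.65% and the NFAT letters in 18.6% of 32851 mouse windows of the same length, AP-1 in 6.75%, CRE in 1.55% and TATAAA in 7.59%. The windows of Ccl3 and Xcl1 held none of these letters.

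The libraries held between 2923 and 7238 cells and between 27791735 and 65519423 UMIs in those cells. The median depth per cell was 4516 to 7148 UMIs in the isotype group and 6603 to 7682 in the anti-ACBP group. A cell was placed in a class from its cluster and its own UMIs, which gave 16888 CD8 T cells, 8902 conventional CD4 T cells and 4791 regulatory T cells, with 168 cells in no class. More Cd8a and Cd8b1 than Cd4 UMIs were found in 94.7% ± 1.27 (SD, n = 6) of the CD8 class and 14.1% ± 5.51 of the conventional CD4 class, and a Foxp3 UMI, the regulatory lineage factor, in 81.7% ± 3.32 of the regulatory class. At least 1 of 5 T cell markers was found in 99.9% of cells. Of 9 macrophage and monocyte genes, Adgre1 was at 0 in every class, and their summed level in any class and library was at most 4.14 counts per 1000000 UMIs (CPM). Other lists were higher: 5 natural killer genes summed to at most 12.5 CPM in the CD8 class and 44.6 CPM in cluster 6. In the regulatory class B cell genes reached 13.6 CPM and dendritic cell genes, Cd74 among them, 711 CPM. There were 1078 cells whose barcode was used in more than 1 library, and none of the 312 shared barcodes with a single T cell receptor beta chain in each library carried the same chain.

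Ccl3 and Ccl4, also called MIP-1 alpha and MIP-1 beta, had their highest levels in cluster 5, a cluster of CD8 cells (53.9% ± 7.79 with more Cd8 than Cd4 UMIs) and CD4 cells. Levels here are CPM, summed over the cells of 1 cluster in 1 library, and since the clusters are taken to come from the expression of the same cells (their method is not stated), they are descriptions without a test. Ccl3 in cluster 5 was 2069, 2131 and 2904 CPM in isotype mice 1 to 3 and 3624, 1895 and 2544 CPM in anti-ACBP mice 1 to 3. Every one of these values lay above the highest Ccl3 level in any other cluster, 272 CPM in cluster 3. Below cluster 5 the Ccl3 means ran in the order 3, 2, 7, 8, 6, 0, 4 and 1, from 149 ± 93.5 down to 15.3 ± 5.71 CPM (SD, n = 6), and the ranges of each neighbouring pair overlapped.

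Ccl4 in cluster 5 was 4157, 6649 and 6004 CPM in the isotype and 7290, 3936 and 6642 CPM in the anti-ACBP mice. The second place belonged to cluster 2, the cluster of Foxp3+ cells, at 260, 978 and 391 CPM in the isotype and 1070, 557 and 902 CPM in the anti-ACBP mice. No cluster 2 value reached the lowest cluster 5 value. The other clusters followed in the order 3, 6, 8, 0, 4, 7 and 1, where the mean was 30.7 ± 4.04 CPM, and again each overlapped its neighbour in range. Cluster 5 held 4.74% of the cells on average, 67.6% ± 4.21 of all Ccl3 UMIs and 60.2% ± 5.59 of all Ccl4 UMIs, and cluster 2, with 14.8% of the cells, held 10.9% ± 4.29 and 20.1% ± 5.65.

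Ccl1, the ligand of Ccr8, was also highest in cluster 5, but its second cluster was cluster 7, in which Cd4 UMIs outnumbered Cd8 UMIs in 81.3% ± 6.44 of cells. Cluster 5 Ccl1 was 3468, 3480 and 2821 CPM in the isotype and 2024, 3491 and 1656 CPM in the anti-ACBP mice. Cluster 7 Ccl1 was 989, 915 and 1571 CPM in the isotype and 611, 499 and 1103 CPM in the anti-ACBP mice. These 2 clusters did not overlap each other, and the lowest cluster 7 value lay above the highest value of any other cluster (423 CPM, 1 library of cluster 8). The remaining order was 3, 8, 1, 6, 4, 2 and 0, from 142 ± 87.1 to 15.1 ± 6.98 CPM, with overlapping neighbours. Conventional CD4 T cells, 28.8% of the cells, held 62.3% ± 13.2 of the Ccl1 UMIs and CD8 T cells 27.1% ± 15.5.

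Ccl5, also called RANTES, had another distribution. It was highest in cluster 6, in which 96.1% ± 4.12 of cells had more Cd8 than Cd4 UMIs, at 11606, 6349 and 5581 CPM in the isotype and 8769, 6976 and 9233 CPM in the anti-ACBP mice. Cluster 0, the largest CD8 cluster, followed with 4636 ± 1342 CPM and cluster 5 with 3994 ± 1077 CPM (SD, n = 6), and neighbours among these 3 clusters overlapped in range. Each of the 3 lay above clusters 8, 3, 4, 7, 2 and 1, whose highest single value was 2556 CPM. CD8 T cells, 55.3% of the cells, held 89.1% ± 6.43 of Ccl5 UMIs, of which most were in cluster 0 (58.7% ± 5.67) rather than in cluster 5 (9.91% ± 5.55).

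Xcl1, or lymphotactin, was highest in cluster 5 at 434, 213 and 756 CPM in the isotype and 483, 514 and 219 CPM in the anti-ACBP mice. It was lowest in cluster 2, where it lay between 0.37 and 1.96 CPM in all 6 libraries, below every library of the next cluster in the order, cluster 3 (6.44 to 38.1 CPM). The clusters between, in the order 6, 8, 7, 0, 4, 1 and 3, had means from 72.7 ± 61.8 to 16.3 ± 12.8 CPM and overlapping ranges. CD8 T cells held 81.0% ± 9.74 and regulatory T cells 1.31% ± 1.29 of the Xcl1 UMIs.

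**Figure D1:**
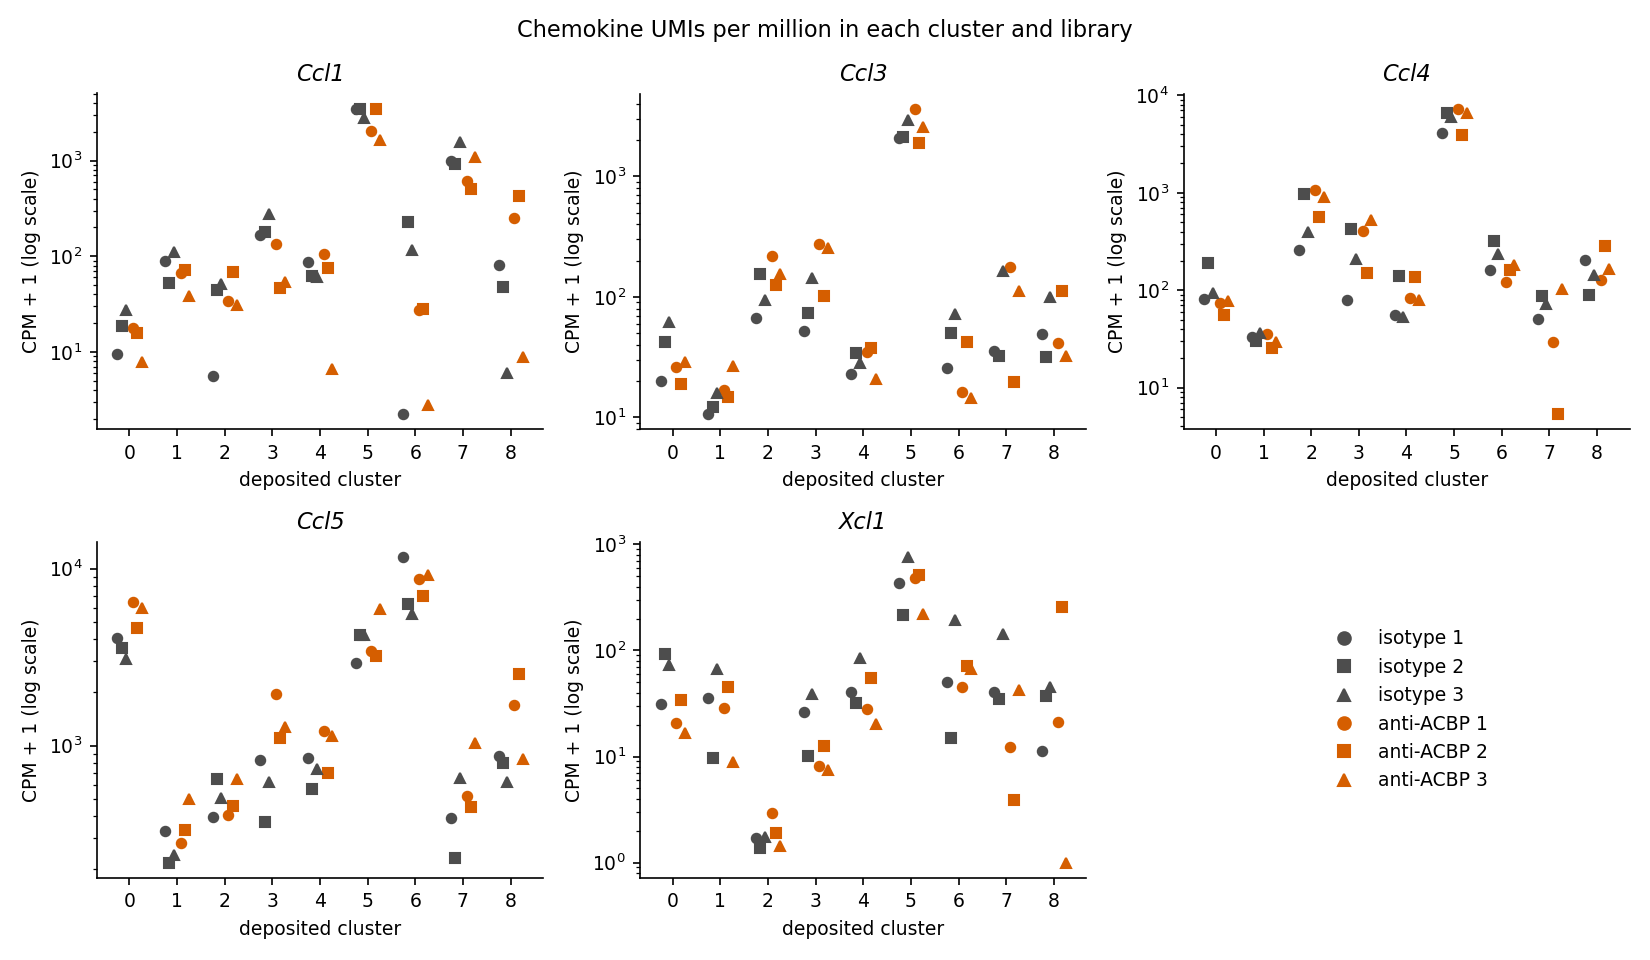
CPM plus 1, on a log scale, of each of the 5 genes (panels) in the 9 deposited clusters (horizontal axis), with 1 point per library, grey for isotype and orange for anti-ACBP. Ccl1, Ccl3, Ccl4 and Xcl1 peak in cluster 5, Ccl5 is high in clusters 0, 5 and 6, and Xcl1 stays under 2 CPM in cluster 2.

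**Figure D2:**
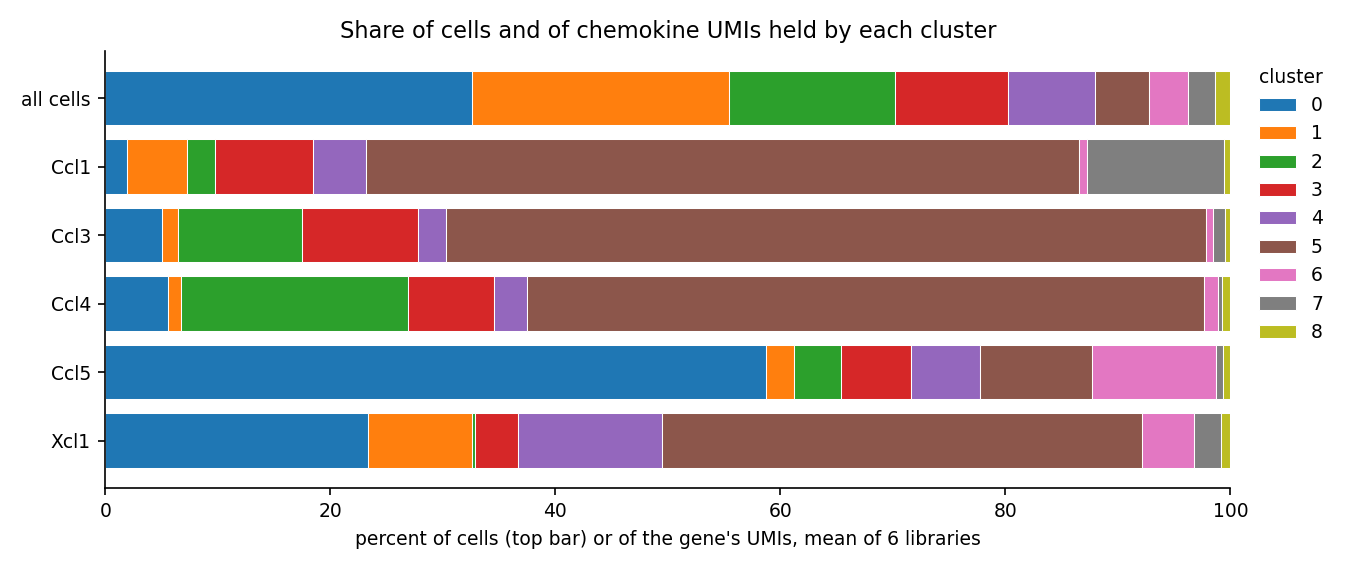
Percent of cells (top bar) and of the UMIs of each gene (lower bars) that each cluster held, as means of 6 libraries. Cluster 5 holds 4.74% of the cells, 67.6% of the Ccl3 UMIs and 9.91% of the Ccl5 UMIs.

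Shares of cells with at least 1 UMI gave the same first cluster for each gene. After each cell was thinned to 2000 UMIs, leaving out 1030 shallower cells, 55.5% ± 8.48 of cluster 5 cells had Ccl3, 70.7% ± 8.77 had Ccl4, 45.5% ± 8.60 had Ccl1 and 11.3% ± 5.54 had Xcl1 (SD, n = 6), against 64.2%, 75.2%, 50.3% and 15.2% before thinning. Ccl5 was found in 86.8% ± 8.05 of thinned cluster 6 cells, and in 92.6% before thinning. Free RNA in droplets can add single UMIs to cells, and these cells hold no type known to lack all 5 genes, so the lowest cluster is given as the comparison. That was 0.114% ± 0.106 for Xcl1 in cluster 2, 1.40% ± 0.37 for Ccl3 and 3.01% ± 0.39 for Ccl4 in cluster 1, 1.82% ± 0.99 for Ccl1 in cluster 2 and 18.8% ± 5.31 for Ccl5 in cluster 7. Before thinning, the median depth was 4391 to 8724 UMIs in cluster 5, 3993 to 7776 in cluster 6, 3347 to 6240 in cluster 1, 4202 to 8770 in cluster 2 and 4529 to 9716 in cluster 7.

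The UMIs of 4 of the genes sat in few cells. In each library the 1% of cells with the most UMIs of a gene held 78.5% of the Xcl1, 68.2% of the Ccl1, 62.2% of the Ccl3 and 51.1% of the Ccl4 UMIs on average, but 14.3% of the Ccl5 UMIs. Receptor clones were defined by a shared single beta chain. Among cluster 5 cells with a single beta chain, the clone with the most Xcl1 UMIs held between 23.0% and 70.3% of these UMIs in its library. In 4 of 6 libraries only 1 cell of that clone lay in cluster 5, and its cells in other clusters were not counted. For Ccl1 the leading clone held 6.82% to 42.2%.

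Within cluster 5, Ccl3 and Ccl4 were often found in the same cells, and Ccl1+ cells had them less often than other cells. Of thinned cluster 5 cells with Ccl3, 92.9% ± 3.56 also had Ccl4, against 44.1% of cells without Ccl3 (n = 6 libraries). By lineage these shares were 93.3% against 74.6% ± 18.2 in CD8 cells and 92.5% against 19.6% ± 11.5 in conventional CD4 cells. Of cells with Ccl1, 43.0% ± 11.4 had Ccl4, against 94.9% of cells without Ccl1, and 34.7% ± 10.2 had Ccl3, against 73.7%. For Ccl4 the same direction was seen in CD8 cells of the cluster (65.6% ± 15.5 against 95.8%) and in its conventional CD4 cells (34.5% ± 13.0 against 92.6%). In the CD8 cells most Ccl1+ cells thus did have Ccl4, and 51.4% ± 11.8 had Ccl3. A cluster gathered on the expression of these genes can hold cells with either one, and over the thinned cells of all clusters the direction was the other: 24.4% ± 5.88 of Ccl1+ cells had Ccl4, which 13.2% of cells without Ccl1 had. These shares are descriptions of cells and were not tested.

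Within cluster 5, cells with Il2 or Csf2 had Ccl1 more often than cells without them, and for Ifng the shares differed little. In cluster 5, 90.9% of cells with Il2, the T cell growth factor interleukin-2, and 90.8% of cells with Csf2, which encodes GM-CSF, had Ccl1, against 41.9% and 36.5% of cells without them. These shares pool both lineages. In conventional CD4 cells of the cluster the contrast was smaller, 95.5% against 63.6% for Il2 and 93.7% against 56.8% for Csf2. In its CD8 cells it was 80.0% ± 27.9 against 24.5% for Csf2, and Il2 was rare (2.42% ± 3.43 of Ccl1+ cells). Of cluster 5 cells with Ccl1, 14.5% ± 6.04 had Il2 and 33.9% ± 9.74 had Csf2, against 0.81% and 2.83% of those without. Ifng, which encodes interferon gamma, was more common, in 58.4% ± 8.91 of cluster 5 cells with Ccl1 and in 61.8% of those without. Over the thinned cells of all clusters, 42.7% ± 6.58 of Ccl1+ cells had Ifng, against 13.2% of cells without Ccl1. Of cluster 5 cells with Xcl1, 70.7% ± 11.7 had Ccl1, against 41.9% of cells without Xcl1. Across 52 sums per library and cluster (log2 of CPM plus 1, 8152 genes), the genes most like Ccl1 by Pearson's r were Ifng (0.84), Csf2 (0.82) and Eef1e1 (0.78). Those most like Ccl3 were Ccl4 (0.88), Egr3 (0.71), a factor induced by receptor signalling, and Gem (0.68). For Ccl4 they were Ccl3, Egr3 (0.67) and Med7 (0.63), for Ccl5 the cytotoxic granule gene Nkg7 (0.81), Itgax (0.78) and the granzyme gene Gzmk (0.77), and for Xcl1 Rgs16 (0.86), Crtam (0.80) and Btg3 (0.79). The sums of 1 library share its depth and mouse, so these are descriptions.

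CD4 and CD8 cells of cluster 5 were compared within each mouse, a comparison added after the data were seen. Ccl1 in the CD8 cells of the cluster was 1943, 590 and 2298 CPM in the isotype and 996, 1199 and 146 CPM in the anti-ACBP mice. In the conventional CD4 cells of the cluster it was 5492, 4960 and 3932 CPM in the isotype and 4193, 6439 and 4349 CPM in the anti-ACBP mice. Ccl1 was higher in the CD4 cells of all 6 mice, and the lineages did not overlap. The log2 difference (CD4 minus CD8) was 2.38 ± 0.58 (SE), with an adjusted p of 0.0425 by edgeR's quasi-likelihood test with the mouse as a block, and the call was lost when any 1 of 4 libraries was left out (isotype 1 or 2, anti-ACBP 1 or 2), with adjusted p up to 0.114. Of the 5 chemokines 1 passed, Ccl1, where 21.6% of the 6844 genes tested passed.

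Xcl1 pointed the other way and did not pass. It was 523, 424 and 1281 CPM in the CD8 cells of cluster 5 in the isotype and 756, 850 and 271 CPM in the anti-ACBP mice. In the conventional CD4 cells it was 419, 72.6 and 43.4 CPM in the isotype and 17.2, 27.3 and 140 CPM in the anti-ACBP mice, lower in all 6 mice (log2 difference -2.67 ± 0.86, edgeR adjusted p = 0.0925). Ccl5 was lower in the CD4 cells of 5 of 6 mice (-2.05 ± 0.68, edgeR adjusted p = 0.0993). Ccl3 (0.43 ± 0.24) and Ccl4 (0.06 ± 0.11) had edgeR adjusted p of 0.300 and 0.770. Without 1 library 2 other calls appeared: Ccl3 passed without isotype 1 (0.62, edgeR adjusted p = 0.0190) and Ccl5 without isotype 3 (-2.51, edgeR adjusted p = 0.0461).

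**Figure D3:**
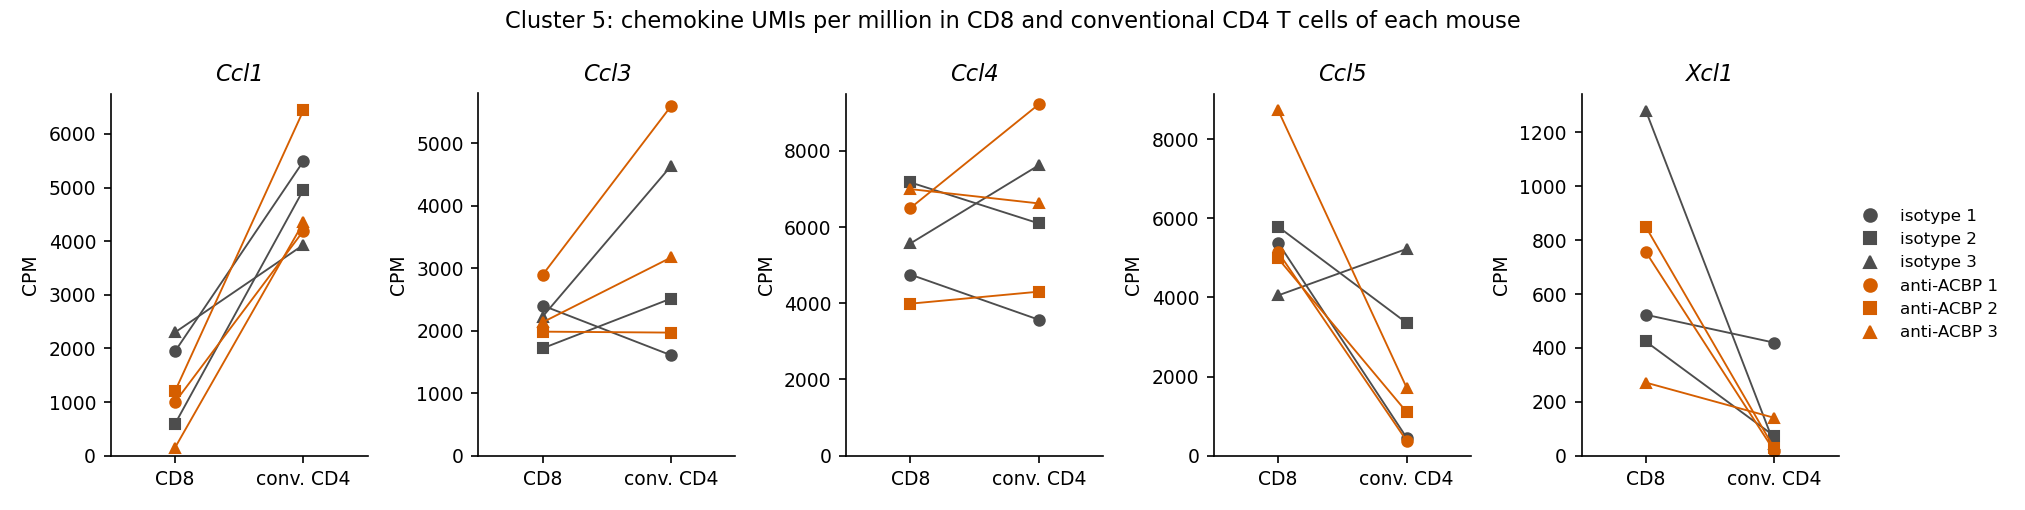
CPM of the 5 genes in the CD8 and the conventional CD4 T cells of cluster 5, with a line for each mouse. Ccl1 is higher in the CD4 cells of all 6 mice (146 to 2298 against 3932 to 6439 CPM), Xcl1 is lower in all 6, and Ccl4 shows no common direction.

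Levels were also read by clone size. In conventional CD4 T cells, Ccl4 averaged 199 ± 277 CPM in cells whose beta chain was seen once in the mouse and 752 ± 252 CPM in cells of clones of 10 or more (SD, n = 6). Ccl1 averaged 321 ± 180 and 684 ± 194 CPM over the same cells. In CD8 T cells Ccl5 averaged 4107 ± 1216 CPM in single cells and 3250 ± 1104 CPM in clones of 10 or more, and Xcl1 265 ± 322 and 46.2 ± 27.3 CPM. The ranges over the 6 libraries overlapped in each of these 4 cases. In regulatory T cells Ccl3 averaged 36.9 ± 34.8 CPM (12.6 to 104) in single cells and 365 ± 294 CPM (144 to 921) in clones of 10 or more, without overlap, the only one of 15 pairs of gene and class where these ranges were apart. These were not tested.

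The comparison of the antibody groups asks whether neutralising ACBP during chemotherapy and before anti-PD1 changed the chemokine message of tumour T cells. In CD8 T cells, Ccl5 was 3041, 2534 and 2020 CPM in isotype mice 1 to 3 and 4230, 3452 and 4646 CPM in anti-ACBP mice 1 to 3. All 3 anti-ACBP mice lay above all 3 isotype mice. The log2 change was 0.67 ± 0.17 (SE), and it did not pass (edgeR's quasi-likelihood test, unadjusted p = 0.00553, adjusted p = 0.120 over 11697 genes). It passed with DESeq2 (adjusted p = 0.00153) and without isotype mouse 1 (0.84, edgeR adjusted p = 0.0383). No chemokine of the 5 passed in this class by edgeR or limma-voom and 1 by DESeq2. At an unadjusted edgeR p under 0.05 there was 1, and with no share of all genes given at that bound nothing is read from it. Of all genes tested 1.05% passed by edgeR. The groups were apart for 1 of 5, against 24.4% of genes tested.

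The share of CD8 T cells with Ccl5 and the amount per Ccl5+ cell both differed in the same direction. After thinning, 65.3%, 59.9% and 57.4% of CD8 cells had Ccl5 in the isotype and 66.4%, 68.0% and 73.1% in the anti-ACBP mice, without overlap. Unthinned Ccl5+ CD8 cells held 34.3, 22.6 and 18.7 UMIs on average in the isotype and 50.6, 45.3 and 51.4 in the anti-ACBP mice, at median depths of 7374, 5274 and 5125 against 7308, 8306 and 7535 UMIs. Cluster 6, where Ccl5 was highest, made up 3.15% to 5.26% of the CD8 class in isotype and 6.21% to 9.58% in anti-ACBP mice. Cluster 4, where Ccl5 averaged 866 CPM, made up 11.1% to 17.5% of the class in isotype and 8.55% to 9.39% in anti-ACBP mice. With the cluster make-up held equal in all libraries, Ccl5 as a mean over cells was 46.3, 39.0 and 33.6 UMIs per 10000 in the isotype mice. It was 58.2, 44.2 and 57.6 in the anti-ACBP mice, and the groups overlapped. A mean over cells is another measure than the CPM of summed counts above, and the part of the make-up was not tested. Of 13 genes that tissue handling is known to induce, 3 rose in CD8 T cells, beside 1.05% of all genes tested. They were Fosb, Egr1 and Atf3 (log2 changes 1.71, 1.12 and 1.08). The other 10 did not pass and went in both directions, from -0.89 (Junb) to 2.20 (Fos), and the list median was 0.15. The part of handling genes in the Ccl5 difference was not tested.

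The other 4 genes in CD8 T cells overlapped between groups. Ccl3 averaged 131 ± 28.2 CPM in the isotype and 186 ± 61.7 CPM in the anti-ACBP mice (SD, n = 3, log2 change 0.49 ± 0.28, edgeR adjusted p = 0.416). Ccl1 had a log2 change of -0.69 ± 0.60, Xcl1 of -0.58 ± 0.43 and Ccl4 of 0.12 ± 0.49, with edgeR adjusted p from 0.543 to 0.923. For Ccl4 the mean isotype level was 399 ± 252 CPM (SD, n = 3), set mostly by isotype mouse 2 at 688 CPM.

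In conventional CD4 T cells none of the 5 chemokines passed, where 0.329% of 10938 genes did, and the groups overlapped for all 5 (they were apart for 21% of genes). At an unadjusted p under 0.05 the count was also 0 of 5 in edgeR, and DESeq2 and limma-voom called 0 of 5 as well. Ccl1, the chemokine with most of its UMIs in this class, was 536, 664 and 592 CPM in the isotype and 501, 661 and 399 CPM in the anti-ACBP mice (log2 change -0.18 ± 0.18). The log2 changes of the other 4 were 0.34 ± 0.73 (Ccl3), 0.19 ± 0.61 (Ccl4), -0.33 ± 0.38 (Ccl5) and -0.83 ± 0.58 (Xcl1). Ccl3 and Ccl4 varied widely between mice of 1 group: in isotype mice Ccl3 ran from 90.9 to 410 CPM and Ccl4 from 203 to 671 CPM.

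In regulatory T cells, Xcl1 was called higher in the anti-ACBP mice, at levels near the low-count filter. It was 0.78, 0.54 and 1.94 CPM in the isotype and 3.61, 11.7 and 7.95 CPM in the anti-ACBP mice, without overlap, and the log2 change was 2.87 ± 0.52 (edgeR's quasi-likelihood test, adjusted p = 0.0265). The filter asked for 1.81 CPM in 3 libraries, which 1 isotype and 3 anti-ACBP libraries reached, so Xcl1 was tested only through the group where it was high and had to differ. The other 4 genes reached the filter in all 6 libraries. Xcl1 was 1 of 5 chemokines to pass, where 3.27% of 10468 genes did, and 1 of 5 without overlap, against 26.1% of genes, and nothing is read from these counts. The level rested on very few molecules: 13, 3 and 11 Xcl1 UMIs in 10, 3 and 6 cells of the isotype mice and 20, 54 and 21 UMIs in 7, 6 and 4 cells of the anti-ACBP mice.

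The groups were apart in Xcl1 UMIs outside the main regulatory cluster and overlapped within it. Cluster 2 held 11, 2 and 4 Xcl1 UMIs in 1341, 867 and 890 cells of the isotype mice. It held 10, 4 and 1 in the fewer cells of the anti-ACBP mice (703, 471 and 326). The Foxp3+ cells of clusters 4, 5 and 8 held 2, 1 and 7 against 10, 50 and 20 UMIs, in 1 to 3 cells per mouse, and 1 cell of anti-ACBP mouse 2 held 30 of them. The call was lost without isotype mouse 1 (edgeR adjusted p = 0.0872), anti-ACBP mouse 2 (0.104) or anti-ACBP mouse 3 (0.0977). Without cluster 5, with only cells whose own Cd4 and Cd8 UMIs matched the lineage, or after thinning, Xcl1 was too low to be tested. Cd8a and Cd8b1 in the regulatory class were at 28.0 to 91.8 CPM in the isotype and 125 to 206 CPM in the anti-ACBP mice. Foxp3+ cells of clusters 4, 5 and 8 with more Cd8 than Cd4 UMIs held 1, 0 and 7 against 9, 31 and 5 Xcl1 UMIs. Those with more Cd4 held 1, 1 and 0 against 0, 19 and 0, and any rest lay in cells with equal counts of both. The part of Cd8 RNA in the Xcl1 result was not tested.

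**Figure D4:**
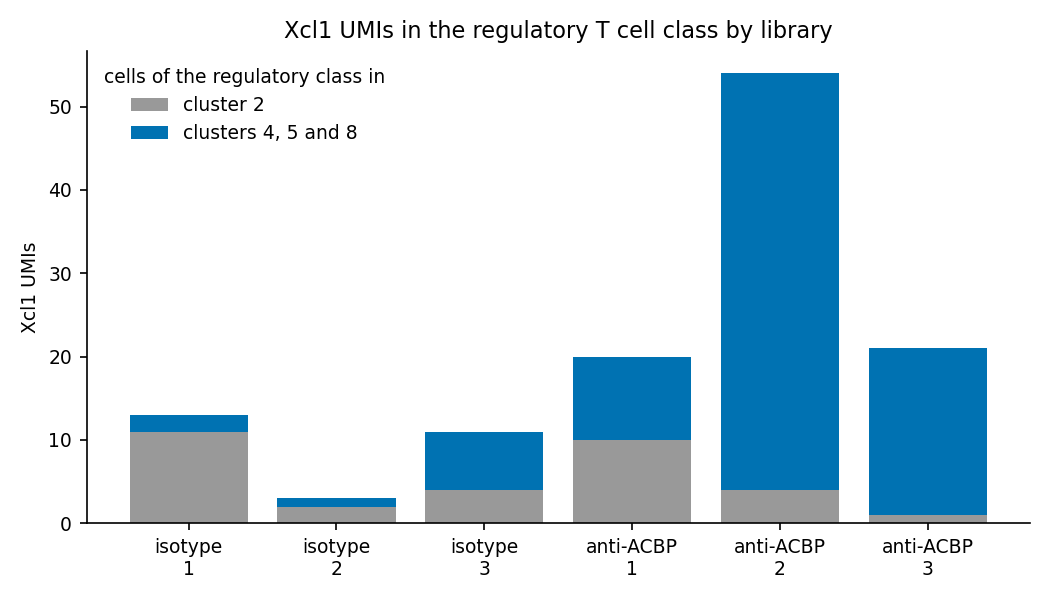
Number of Xcl1 UMIs in the regulatory T cell class of each library (bars), split into cells of cluster 2 and Foxp3+ cells of clusters 4, 5 and 8. Cluster 2 gives 1 to 11 UMIs in every library, and clusters 4, 5 and 8 give 1 to 7 in isotype and 10 to 50 in anti-ACBP mice.

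Ccl4, the member of the 5 with the largest share of its UMIs in regulatory T cells (23.0% ± 6.66), was 296, 1088 and 401 CPM there in the isotype and 1130, 566 and 928 CPM in the anti-ACBP mice. The groups overlapped and the test was not passed (log2 change 0.55 ± 0.64, edgeR adjusted p = 0.705). Ccl3 was 88.7, 179 and 96.7 against 212, 142 and 284 CPM (0.79 ± 0.40, edgeR adjusted p = 0.347), and it passed when only cells marked TRUE in the table's DF1 column, which no label explains, were kept (1.17, edgeR adjusted p = 0.0162). Ccl1 (0.67 ± 0.85) and Ccl5 (0.06 ± 0.28) did not pass either.

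**Figure D5:**
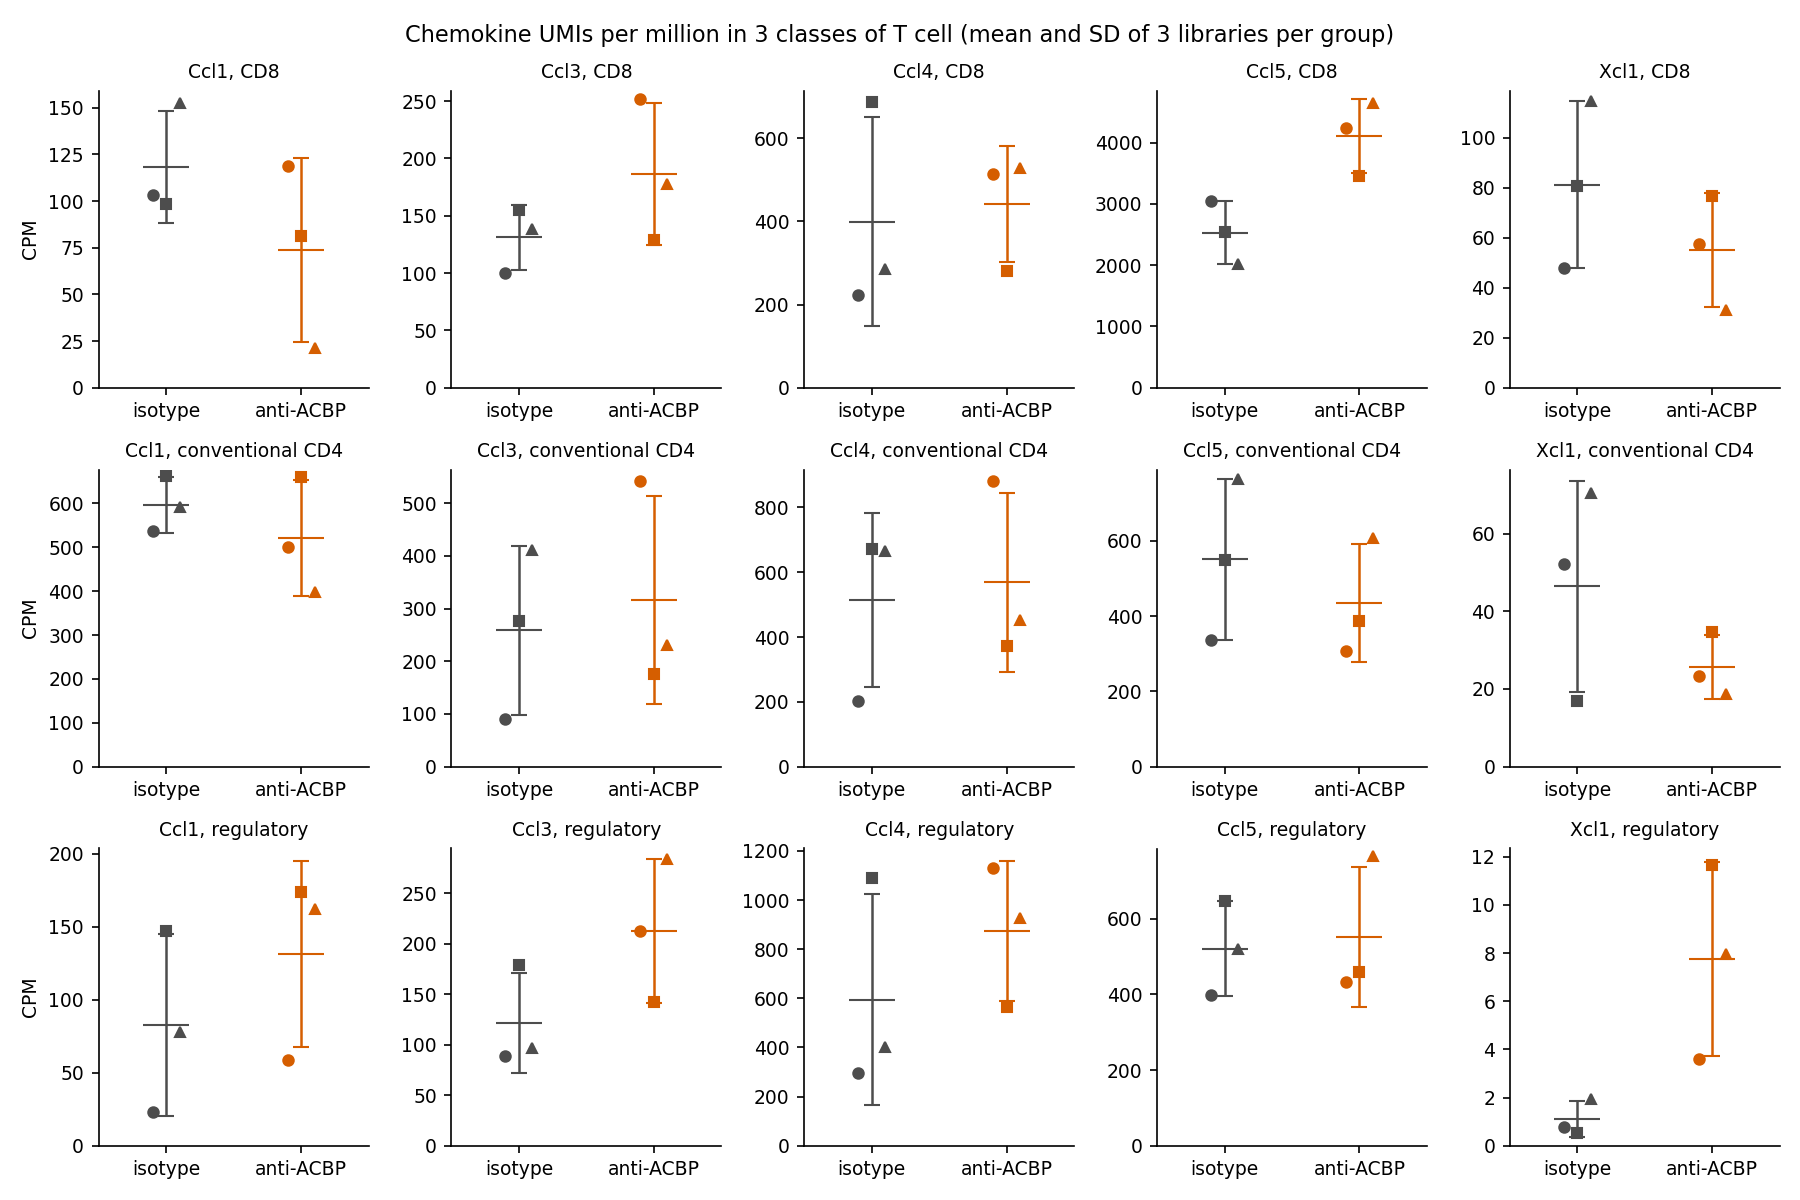
CPM of the 5 genes (columns) in CD8, conventional CD4 and regulatory T cells (rows) by group, with a point per library, a bar for the mean and whiskers for the SD (n = 3). The groups are apart for Ccl5 in CD8 T cells and for Xcl1 in regulatory T cells, where the levels are 0.54 to 11.7 CPM, and overlap in the other panels.

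Whether the change differed between classes was tested with the mouse as a block, and none of the 5 genes passed for any of the 3 pairs of classes. Genes that passed made up 0.0169% (conventional CD4 minus CD8), 0.466% (regulatory minus CD8) and 0.0508% (regulatory minus conventional CD4) of 11812 genes. For Xcl1 the change in regulatory cells exceeded that in CD8 cells by 3.36 ± 1.15 on the log2 scale (edgeR unadjusted p = 0.0185, adjusted p = 0.332) and that in conventional CD4 cells by 3.56 ± 1.17 (unadjusted p = 0.0153, adjusted p = 0.360). For Ccl5 the change in conventional CD4 cells lay 0.97 ± 0.43 below that in CD8 cells (unadjusted p = 0.0522, adjusted p = 0.703). Over the 15 tests of the 5 genes, those 2 tests of Xcl1 were the only ones with an unadjusted p under 0.05. The share of all genes under that bound is not given, and nothing is read from this count.

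Within single clusters none of the 5 genes passed in clusters 0 to 7, and cluster 8 had too few cells in the anti-ACBP mice to be tested. Of 39 pairs of gene and cluster tested by edgeR, 0 passed and 8 had an unadjusted p under 0.05. The share of all genes under that unadjusted bound is not given here, so nothing is read from the 8. Xcl1 was too low to be tested in cluster 2. Genes that passed made up 1.19% of those tested in cluster 0, 0.192% in cluster 1, 4% in cluster 2, 0.228% in cluster 3, 0.918% in cluster 4, 0.207% in cluster 5, 2.55% in cluster 6 and 0.439% in cluster 7. Ccl5 in cluster 0 was 4069, 3570 and 3102 CPM in the isotype and 6472, 4614 and 5986 CPM in the anti-ACBP mice, without overlap (log2 change 0.63 ± 0.15, edgeR unadjusted p = 0.00325, not passed after adjustment). In the same cluster Ccl4 was 80.7, 191 and 91.6 CPM against 72.5, 54.5 and 76.8 CPM, also without overlap (-0.85 ± 0.34, edgeR adjusted p = 0.310), so that 2 of 5 genes there had groups apart, against 22.1% of genes.

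Cluster 3, a CD8 cluster with 85.0% ± 2.80 of its cells richer in Cd8 than Cd4, also held 2 of 5, against 17.4% of genes. Its Ccl5 was 830, 370 and 625 CPM in the isotype and 1963, 1111 and 1280 CPM in the anti-ACBP mice (log2 change 1.22 ± 0.40, edgeR adjusted p = 0.390). Its Ccl1 was 167, 180 and 278 CPM against 132, 45.3 and 52.7 CPM (-1.41 ± 0.52, edgeR adjusted p = 0.436). In cluster 6 Ccl5 overlapped (0.10 ± 0.35), and in cluster 5 all 5 genes overlapped, with log2 changes from -0.44 ± 0.33 (Ccl1) to 0.18 ± 0.29 (Ccl3). Leaving out 1 library gave calls in few cases: Ccl4 (-0.85) and Ccl5 (0.51) in cluster 6 without isotype 1, Xcl1 (-2.00) in cluster 3 without isotype 2, and Ccl1 (-0.83) in cluster 5 and Ccl3 (-1.63) in cluster 6 without anti-ACBP 2.

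Receptors of these chemokines were read in the same cells. Ccr8, which binds Ccl1, was 302 ± 84.0 CPM in regulatory T cells of isotype and 328 ± 49.2 CPM of anti-ACBP mice, 319 ± 104 and 241 ± 57.3 CPM in conventional CD4 T cells, and 60.8 ± 11.2 and 93.4 ± 16.7 CPM in CD8 T cells (SD, n = 3). Ccr1, which binds Ccl3 and Ccl5, ran from 8.78 CPM in a CD8 library to 66.4 CPM in a regulatory one, and Xcr1, the receptor of Xcl1, stayed at or under 1.93 CPM in every class and library. Ccr3 was near 0 outside regulatory T cells (9.48 ± 6.07 and 16.6 ± 4.89 CPM there), and the scavenging receptors Ackr2 and Ackr4 were at or near 0. The list also held the binding partners Cd44, Sdc1 and Sdc4. None of the genes tested passed. The CD8 class had 7 tested and a median log2 change of 0.20, the conventional CD4 class 7 and -0.15, and the regulatory class 6 and 0.21, against -0.00, -0.01 and -0.01 over all genes tested.

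Of 31 other chemokine genes, 30 were in the files and few were expressed, and none of those tested passed. The CD8 class had 5 tested (median log2 change 0.56), the conventional CD4 class 7 (0.06) and the regulatory class 6 (1.11). The highest of them were Cxcl10, an interferon-induced ligand of Cxcr3, at 4.72 ± 8.03 and 43.4 ± 35.2 CPM in regulatory T cells (edgeR adjusted p = 0.372), and Cxcl2, a ligand of neutrophil receptors, at 13.9 ± 3.17 and 30.5 ± 52.7 CPM there (edgeR adjusted p = 0.739). Of all genes tested, 1.05% passed in the CD8, 0.329% in the conventional CD4 and 3.27% in the regulatory class. Among 16 cytokines and death ligands (15 tested in CD8 T cells), 1 rose in CD8 T cells, the macrophage growth factor gene Csf1 (67.4 ± 1.97 and 181 ± 52.4 CPM, log2 change 1.40 ± 0.21, edgeR adjusted p = 0.0462), and 1 in conventional CD4 T cells, Fasl, a death ligand (121 ± 8.73 and 167 ± 12.7 CPM, 0.48 ± 0.08, edgeR adjusted p = 0.0493), and none passed in regulatory T cells. Ifng, the gene most like Ccl1, was 647 ± 110 and 874 ± 90.8 CPM in conventional CD4 T cells (0.45 ± 0.12, edgeR adjusted p = 0.129).

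Of 29 transcription factors known at chemokine promoters or in activated T cells, 4 rose and 2 fell in CD8 T cells (1.05% of all genes passed there in either direction). Fosb (1.71), Atf3 (1.08) and Egr1 (1.12), early response factors, and Batf (0.67), an AP-1 partner, were the 4. Prdm1, which encodes Blimp-1, fell by 1.38 and Fosl2 by 0.99 on the log2 scale. In conventional CD4 T cells 3 rose (Fosb, Atf3 and Rela, a subunit of NF-kappaB, 0.62) and none fell, beside 0.329% of all genes. In regulatory T cells 8 of 28 rose, Rela (0.73), Fosb, Atf3, Egr1, Egr2, Irf4 (0.66), Nr4a3 (0.65) and Tbx21 (0.72), and 2 fell, Junb (-0.66) and Ikzf2 (-0.46), beside 3.27% of all genes. Egr3, the factor most like Ccl3 and Ccl4 across clusters, passed in no class. The median log2 changes of this list were 0.20, 0.18 and 0.28 in the 3 classes, and 13 handling genes, which share Fosb, Egr1, Atf3 and Junb with it, held 3, 2 and 4 that rose and, in the regulatory class, 1 that fell (Junb), beside the same shares of all genes. In the regulatory class the fourth was Ier2 (0.58), and their part in the Xcl1 result was not tested.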

How the data were processed

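For each gene and barcode, the matrices deposited by the authors give UMI counts from Next GEM Single Cell 5′ v2 libraries, per the labels' protocols. Cell Ranger 7.0.0, Seurat and mm10 are named in the submitters' processing notes with no role given; removal of free RNA or doublets is not stated. The deposited cell table listed 30749 of 69249 barcodes with a cluster number, each with at least 800 genes, and its totals equalled the matrix sums in all 30749. No doublet caller was run; leaving out the 1028 cells with 2 or more beta chains was an alternative. The authors' receptor contig table, with UMI counts per contig, gave the beta chains.

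CD8 T cells were clusters 0, 3 and 6, conventional CD4 T cells clusters 1 and 7, and regulatory T cells cluster 2. Cells of clusters 4, 5 and 8 joined the regulatory class with a Foxp3 UMI, and otherwise the class of whichever of Cd8a plus Cd8b1 or Cd4 had more UMIs. Counts were summed per library and class or cluster, without 643 receptor and immunoglobulin segment genes, and scaled to 1000000 UMIs. Sums were tested with edgeR 4.0.16 (TMM, default low-count filter, robust quasi-likelihood F test, two-sided, Benjamini-Hochberg over all genes tested, threshold 0.05), and clusters with at least 20 cells per library in 2 or more libraries of each group. The fits were also run on simulated counts with the same spread for every gene, which says nothing of genes that vary more between mice. Alternatives used DESeq2 1.42.0, limma 3.58.1, other scaling and filters, subsets of cells, and each library left out. Descriptions used Python 3.11.15. The genes and lists were chosen with earlier results of these data known. Named were the 5 chemokines, each list gene that passed, receptors, otherwise the 2 of a list with the highest mean level, and the 3 genes most correlated with each chemokine. A gene of the receptor list is not reported here.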

Additional observations from a re-analysis of the deposited data

Results flagged for a closer look

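The matrices also hold 38500 barcodes that the table of cells leaves out, and all 5 chemokines had UMIs in them, above the 3 counts that a count of 0 allows. Over the 6 libraries these barcodes held 3525 UMIs of Ccl1, 4859 of Ccl3, 13219 of Ccl4, 61381 of Ccl5 and 1203 of Xcl1. Per 1000000 UMIs, Ccl1 ranged from 15.4 to 131 there and from 137 to 337 in the cells of the table, without overlap. For the other 4 genes the ranges over libraries overlapped: Ccl3 37.4 to 160 against 94.2 to 304, and Ccl4 98.3 to 447 against 235 to 778. Those of Ccl5 were 601 to 1570 against 1511 to 3231, and of Xcl1 2.90 to 59.8 against 25.8 to 84.4. Compared within each library, Ccl1, Ccl3, Ccl4 and Ccl5 were always lower in these barcodes than in the cells. Xcl1 was lower too, except in anti-ACBP library 2. These barcodes held 2414 to 6849 UMIs per library of Sparc, a fibroblast and tumour cell marker, and 274 to 2217 of Lyz2, a macrophage and monocyte marker. The cells of the table held 2 to 5 and 0 to 8, so the CPM of the 2 sets do not compare like with like. No label says which cells these barcodes are, and they were used in no comparison of groups or clusters.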

How the results depend on the processing

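Few of the comparisons between antibody groups gave the same calls under all alternatives. In CD8 T cells 0 of the 5 chemokines passed, against 1 with DESeq2 and 0 to 1 with 1 library left out. In regulatory T cells 1 passed, against 2 with DF1 TRUE cells only, 0 without cluster 5, 0 with cells of matching lineage, 0 after thinning, and 0 to 1 with 1 library left out. In conventional CD4 T cells 0 passed under every alternative run. Between lineages of cluster 5, 1 passed, against 2 with no mouse block and 0 to 2 with 1 library left out. Within clusters 0 pairs passed, against 0 to 2 with 1 library left out. Changes that did not pass the test turned sign: after thinning Ccl4 in CD8 T cells (-0.14) and Ccl5 in regulatory T cells (-0.27), without cluster 5 Ccl4 (-0.22) and Ccl5 (0.35) in conventional CD4 T cells, and Ccl5 in regulatory T cells without cluster 4 (-0.059) or with matching lineage (-0.23). With 1 library left out, Ccl4 in CD8 T cells ran from -0.15 to 0.75, Ccl3 in conventional CD4 T cells from -0.33 to 0.83, Ccl4 there from -0.31 to 0.42, Ccl5 in regulatory T cells from -0.23 to 0.23, and Ccl4 between lineages of cluster 5 from -0.050 to 0.14. The cause was not tested, except that Xcl1 fell under the low-count filter with fewer cells or UMIs. The genes called over all genes ranged from 47 to 477 in CD8 (123 as reported), 4 to 295 in conventional CD4 (36) and 203 to 836 in regulatory T cells (342), and with 1 library left out from 0 to 744, 2 to 139 and 48 to 784.

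The replicate numbers of the groups gave no pairing. Same-numbered libraries correlated in their deviations from the group means by 0.231, 0.011 and -0.098 in CD8 T cells, and not every library correlated best with its own number. With the replicate block the pairs called within clusters went from 0 to 6 (Ccl5 in clusters 0, 3, 4 and 7, and Ccl1 and Xcl1 in cluster 7). The share of all genes called in those clusters with the block is not given, so nothing is read from the 6. In the classes, the genes called with the block went from 123 to 176 in CD8, 36 to 8 in conventional CD4 and 342 to 396 in regulatory T cells. The number of mice, 3 per group, and the few Xcl1 UMIs in regulatory T cells limit all of these comparisons.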
